A study of Homo sapiens with 24 samples.

Results

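Neurons build and extend axons with a small set of cytoskeletal proteins, and 10 of their genes (GAP43, STMN2, MAP1B, MAP2, MAPT, NEFL, NEFM, DPYSL3, TUBB3 and DCX) were examined here out of 68458 gene identifiers. They were named as well-known microtubule, neurofilament and growth cone genes, by a rule that uses no measured value, although earlier results of these data were known when the genes were chosen. The study sequenced polyadenylated RNA from cells labelled SH-SY5Y, a human neuroblastoma line used as a neuron-like model. MCART1 is the older name of SLC25A51, the carrier that brings NAD+ into mitochondria. MPP+ blocks complex I of the respiratory chain and was given at 0.5 mM for 24 h as a cellular model of Parkinson's disease. The 8 groups of 3 libraries each were oeMCART1 (cells overexpressing MCART1), oeNC (cells with the control of the overexpression), shMCART1 (cells with a hairpin against MCART1) and shScramble (cells with a scrambled hairpin), each with MPP+ and each untreated. The labels name no vector, promoter, hairpin sequence or number of clones. Nor do they say whether a group's 3 libraries came from separate cultures, and p-values here cover only the spread among those libraries, which may be technical.

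Microtubules are hollow polymers of tubulin, and in axons they are stabilised and spaced by microtubule-associated proteins such as tau. Neurofilaments fill and widen the axon behind the growing tip, while the growth cone at the tip depends on membrane and tubulin-binding proteins that keep it moving. In SH-SY5Y cells many of these genes are used as markers of neurite outgrowth.

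The genes lie on 7 chromosomes of GRCh38, with coordinates from GENCODE 29, and the authors may have used another annotation. The microtubule genes are TUBB3 (chromosome 16, 89921392 to 89938761, plus strand), MAPT (chromosome 17, 45894382 to 46028334, plus), MAP1B (chromosome 5, 72107234 to 72209570, plus), MAP2 (chromosome 2, 209424058 to 209734118, plus) and DCX (chromosome X, 111293779 to 111412429, minus). The growth cone genes are GAP43 (chromosome 3, 115623324 to 115721490, plus), STMN2 (chromosome 8, 79610814 to 79666175, plus) and DPYSL3 (chromosome 5, 147390811 to 147510056, minus). NEFL (chromosome 8, 24950955 to 24957110, minus) and NEFM (chromosome 8, 24913012 to 24919098, plus) are neighbours on opposite strands. No source used here says if reads were counted by strand, and overlapping genes could share reads. The antisense genes over TUBB3, NEFL and NEFM reached at most 1.50, 1.21 and 0.84 TPM. A small same-strand RNA annotated inside MAPT (RF00017) reached 6.44 TPM in the MPP+ table and was at 0 in the untreated one.

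The deposited values are TPM, relative transcript abundances scaled by transcript length, so levels of different genes can be compared. The sequencing depth is unknown, since TPM keep none. Between 13022 and 14306 genes reached 1 TPM in a library. The untreated and the MPP+ libraries came in 2 separately made tables, so tests were made only within a table, and levels across the tables are set side by side without a test. SLC25A51 fitted its labels in direction within each pair of groups. With MPP+ it lay at 870 to 1008 TPM in oeMCART1, against 7.87 to 9.44 TPM in oeNC. It lay at 5.06 to 5.82 TPM in shMCART1 with MPP+, against 6.87 to 8.47 TPM in shScramble with MPP+. Without MPP+ it lay at 674 to 697 TPM in oeMCART1, against 29.5 to 35.7 TPM in oeNC, and at 5.47 to 9.45 TPM in shMCART1, against 10.5 to 11.3 TPM in shScramble. The untreated oeNC libraries thus lay above those of untreated shScramble, by 1.44 on the log2 scale, and above oeNC with MPP+. Untreated overexpression was compared with this raised control, and why it was raised was not tested. The cell label was checked against a list of 13 adrenergic neuroblastoma markers, and the data went against it in part. In the untreated table PHOX2A reached at most 0.09 TPM, while TH, the rate-limiting enzyme of dopamine synthesis, reached at most 0.04 TPM in either table. HAND1 lay at 5.04 to 11.2 TPM and GATA2 at 15.2 to 39.1 TPM, and 6 or 7 of the 13 markers averaged 1 TPM or more in each group. The epithelial keratins KRT8 and KRT18, on a list for kidney epithelium and HEK293, lay at 76.3 to 165 TPM and at 72.9 to 137 TPM. The rest of that list was low: PAX8 reached at most 0.05 TPM, PAX2 1.34 TPM, LHX1 1.68 TPM, EPCAM 3.54 TPM and CDH1 3.99 TPM. The growth protocol names HEK293T cells as well, and the tissue label reads bone marrow. The blood marker HBA1 lay at 8.18 to 41.7 TPM, with HBB at 0.16 TPM or less. The genes below are therefore described for the libraries as labelled, without a cell type drawn from them.

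All 10 genes were present in both tables, but at very different levels. MAPT, which encodes tau, had group means from 14.5 to 37.6 TPM, the highest of the set in all groups except the oeMCART1 groups, where the neurofilament genes averaged as much or more. Over its table, MAPT lay above 75.5% of the genes tested in the MPP+ table and above 72.0% of those tested in the untreated one. The neurofilament genes NEFL and NEFM had group means from 12.5 to 21.1 TPM and from 12.2 to 21.9 TPM, and TUBB3 from 7.72 to 15.5 TPM. GAP43 had group means from 3.41 to 10.6 TPM and MAP1B from 2.21 to 5.82 TPM. The median tested gene averaged 7.90 TPM in the MPP+ table and 8.80 TPM in the untreated one. STMN2, MAP2 and DPYSL3 stayed near 1 TPM or below, with highest values of 1.85, 1.19 and 1.12 TPM. DCX, which encodes doublecortin, a microtubule stabiliser of migrating young neurons, was listed at 0 in all libraries except oeMCART1 replicate 1 and shScramble with MPP+ replicate 3, where it was at 0.01 TPM. Genes were tested when at least 3 libraries of a table reached 1 TPM, so 7 of the 10 genes were tested under MPP+ (GAP43, MAP1B, MAP2, MAPT, NEFL, NEFM and TUBB3) and 7 without it (the same set with STMN2 in place of MAP2). DPYSL3 and DCX were tested in neither.

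**Figure D1:**
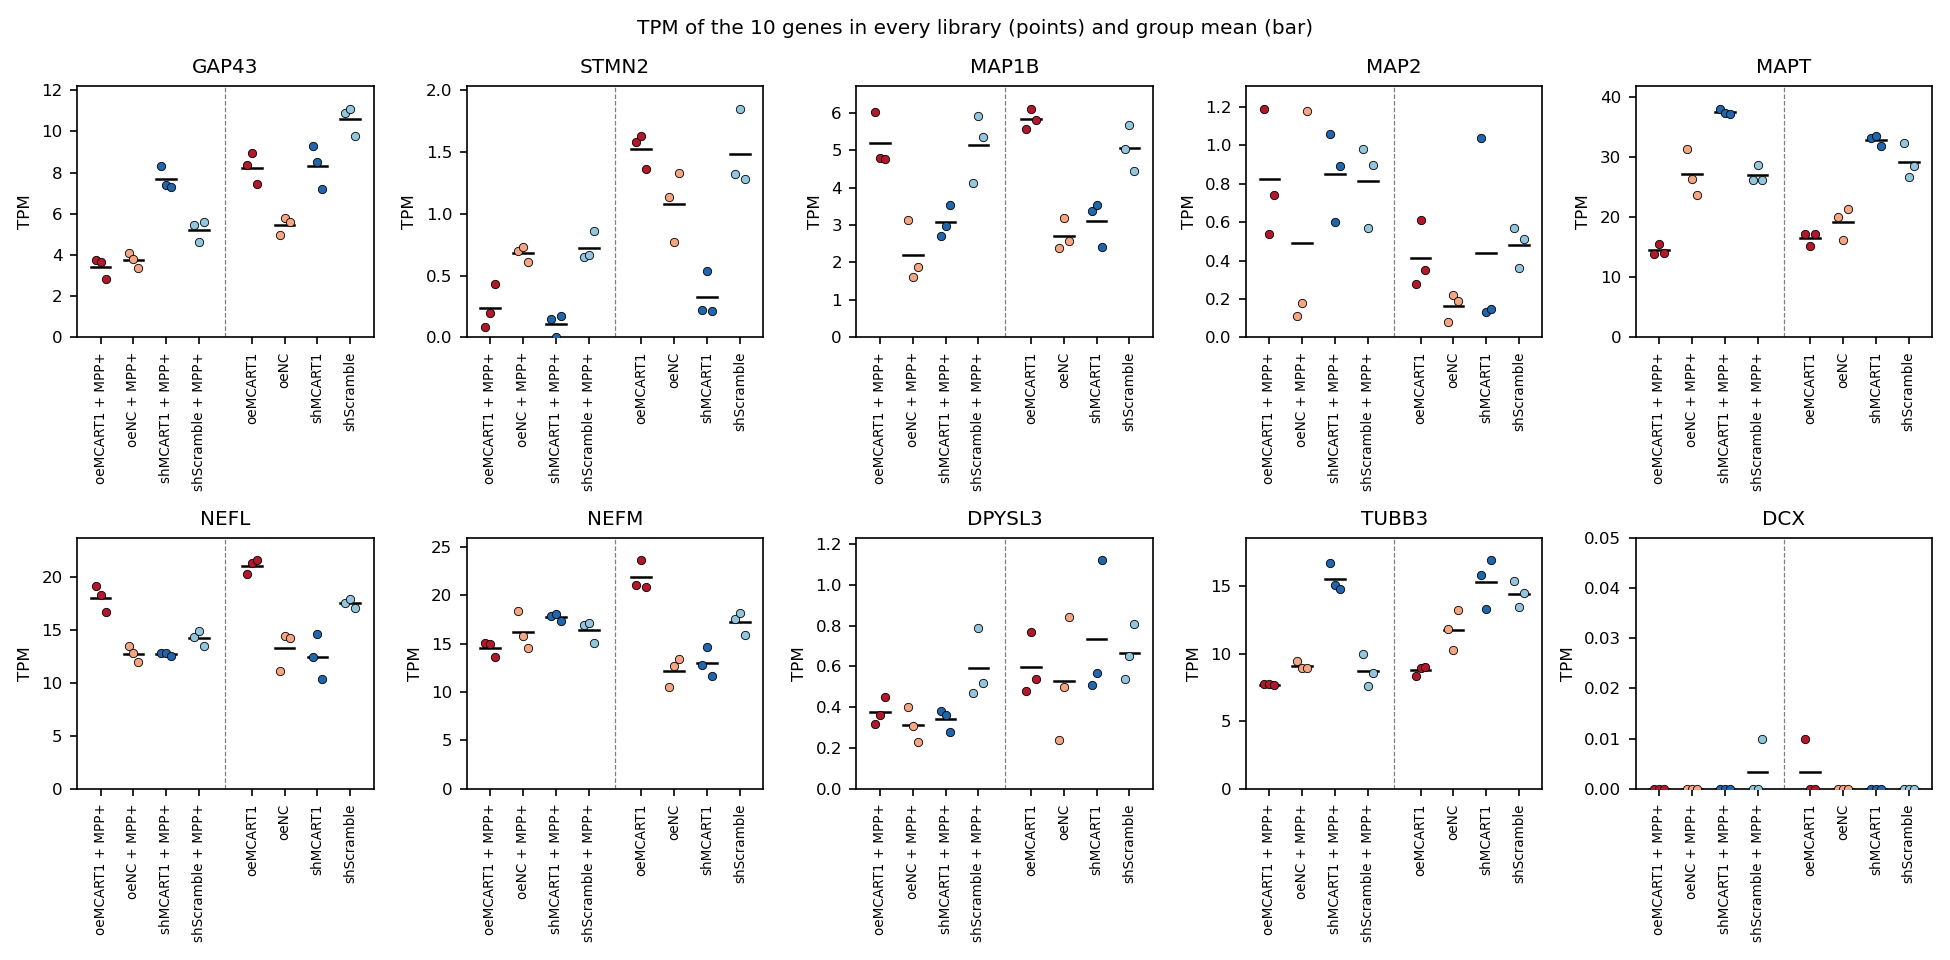
TPM of the 10 genes in every library (points, coloured by construct) with the group mean (bar), with MPP+ on the left and untreated on the right of the dashed line. MAPT is highest in shMCART1 with MPP+, NEFL is highest in oeMCART1 in both tables, and DCX is at 0 or 0.01 TPM throughout. MAP1B is higher in oeMCART1 and shScramble than in oeNC and shMCART1 in both tables.

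Promoter sequences are shown for 3 genes that changed after knockdown under MPP+ and have entries in the RefSeq promoter table (GRCh38.p14): TUBB3 and GAP43, which rose together, and MAP1B, which fell. Each is the 250 bases before a RefSeq transcription start, read 5′ to 3′ on the gene's strand. Capitals mark GGGCGG on either strand, a GC box to which SP1-type factors bind. TUBB3 and MAP1B have 2 starts each in the table, and the downstream one is printed for TUBB3 and the upstream one for MAP1B. The windows are chr16:89923092-89923341 (plus) for TUBB3, chr3:115623260-115623509 (plus) for GAP43 and chr5:72107225-72107474 (plus) for MAP1B.
TUBB3: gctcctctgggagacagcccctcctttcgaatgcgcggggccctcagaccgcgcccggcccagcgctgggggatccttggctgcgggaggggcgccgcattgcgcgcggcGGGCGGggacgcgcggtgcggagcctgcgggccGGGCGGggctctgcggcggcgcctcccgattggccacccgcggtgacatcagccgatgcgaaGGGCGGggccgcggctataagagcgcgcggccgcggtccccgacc
GAP43: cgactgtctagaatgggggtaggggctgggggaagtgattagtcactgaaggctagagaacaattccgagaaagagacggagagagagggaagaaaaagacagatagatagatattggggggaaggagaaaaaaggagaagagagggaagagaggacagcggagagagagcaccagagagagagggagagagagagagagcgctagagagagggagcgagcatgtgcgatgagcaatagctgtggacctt
MAP1B: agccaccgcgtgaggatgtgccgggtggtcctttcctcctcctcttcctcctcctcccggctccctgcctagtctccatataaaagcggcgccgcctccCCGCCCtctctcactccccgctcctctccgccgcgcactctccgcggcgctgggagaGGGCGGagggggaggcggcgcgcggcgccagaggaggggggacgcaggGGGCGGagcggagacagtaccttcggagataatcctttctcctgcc
The TUBB3 window holds 3 GGGCGG matches, 39 CpG pairs and 78.0% G or C, and the MAP1B window holds 3 matches, 25 CpG pairs and 70.0% G or C. The GAP43 window holds no GGGCGG, 7 CpG pairs and 51.6% G or C, with long purine runs. Among 35116 RefSeq promoter windows of this length, 42.6% hold GGGCGG on either strand, and the medians are 58.0% G or C and 11 CpG pairs. TUBB3 and GAP43 each hold 1 CCAAT match on either strand, against 32.0% of all windows with at least 1, and MAP1B holds 1 TATAAA match, against 10.7%. The other TUBB3 start, at chr16:89921675-89921924, has none of the 3 motifs. The other MAP1B start, at chr5:72179537-72179786, has 2 GGGCGG matches, 1 TATAAA match, 11 CpG pairs and 60.4% G or C. TUBB3 and GAP43 thus differ in base composition and in GGGCGG matches. Matches of different motifs may overlap, and they are letters in a window, not sites.

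The first comparison asked whether lowering MCART1 changes these genes when complex I is blocked. Under MPP+, TUBB3, GAP43 and MAPT rose in shMCART1 cells and MAP1B fell, while the neurofilament genes and MAP2 were not called. A gene was called when its p from limma, adjusted by Benjamini-Hochberg over all genes of the table, was under 0.05. Of the 7 genes tested 3 were called higher, against 10.8% of all 14895 genes, and 1 lower, against 22.2%, so that 33.1% of all genes were called in either direction. The 2 groups did not overlap in 6 of the 7 genes, against 49.5% of all genes. Changes are differences of mean log2(TPM + 1), shMCART1 minus shScramble, and this scale understates the change of genes near 1 TPM. The median change was 0.11 over the 7 genes and -0.08 over all genes. In bulk RNA, a change in the share of a cell type and a change in RNA per cell cannot be told apart.

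TUBB3, the beta-tubulin isotype typical of neurons, had the largest change of the set in this comparison. It was at 16.7, 15.1 and 14.8 TPM in shMCART1 cells with MPP+, against 9.95, 7.59 and 8.57 TPM in shScramble cells with MPP+. Every knockdown library lay above every control library, a log2 change of 0.77 ± 0.09 (SE; adjusted p = 1.75e-04). Tubulins share long near-identical stretches, and TUBB averaged 1071 TPM in shMCART1 and 898 TPM in shScramble cells with MPP+. Whether reads of other tubulins were counted to TUBB3 was not tested. MAPT was at 38.1, 37.5 and 37.2 TPM in shMCART1 cells with MPP+, against 26.2, 28.7 and 26.3 TPM in shScramble cells with MPP+. Its 3 knockdown libraries were within 1 TPM of each other and all above the controls, a change of 0.46 ± 0.09 (SE; adjusted p = 0.00261). MAP1B, a microtubule-binding protein abundant in extending axons, was at 2.70, 2.97 and 3.54 TPM in shMCART1 cells with MPP+, against 4.13, 5.91 and 5.35 TPM in shScramble cells with MPP+. All knockdown libraries were lower, a change of -0.59 ± 0.17 (SE; adjusted p = 0.0230). The MAP1B call was lost without shScramble replicate 2 or 3 or without shMCART1 replicate 1 or 2 (adjusted p = 0.0648 to 0.0897), and with no filter on low genes (adjusted p = 0.0670). MAP2, which binds microtubules mainly in dendrites, was at 1.06, 0.6 and 0.89 TPM in shMCART1 cells with MPP+ and 0.98, 0.57 and 0.9 TPM in shScramble cells with MPP+, and the groups overlapped.

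GAP43, a membrane phosphoprotein of the growth cone, was at 8.31, 7.39 and 7.31 TPM in shMCART1 cells with MPP+, against 5.43, 4.62 and 5.61 TPM in shScramble cells with MPP+. The knockdown libraries were all higher, a change of 0.48 ± 0.11 (SE; adjusted p = 0.00711). STMN2, which binds free tubulin and is known for its part in axon regrowth, lay too low for the test, at 0.15, 0 and 0.17 TPM in shMCART1 cells with MPP+ and 0.65, 0.67 and 0.86 TPM in shScramble cells with MPP+. Its groups did not overlap, and with no filter it was called lower, by -0.64 (adjusted p = 0.00537). DPYSL3, a collapsin response mediator protein of growth cones, was at 0.38, 0.36 and 0.28 TPM in shMCART1 cells with MPP+ and 0.47, 0.79 and 0.52 TPM in shScramble cells with MPP+, and it was not called with no filter (adjusted p = 0.130).

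Neurofilaments are assembled on NEFL, the light chain, with NEFM, the medium chain, as a partner. NEFL was at 12.8, 12.8 and 12.6 TPM in shMCART1 cells with MPP+ and 14.4, 14.9 and 13.6 TPM in shScramble cells with MPP+. The knockdown values lay below the controls without overlap but missed the threshold, at -0.15 ± 0.07 (SE; adjusted p = 0.119). NEFM was at 17.9, 18.1 and 17.3 TPM in shMCART1 cells with MPP+ and 16.9, 17.2 and 15.03 TPM in shScramble cells with MPP+, slightly higher in every knockdown library, at 0.11 ± 0.09 (SE; adjusted p = 0.345). Of 5 lists of cell type markers, 3 had sums that did not overlap in this comparison. The adrenergic list summed to 50.8 to 52.5 TPM in shMCART1 cells with MPP+ against 41.4 to 46.0 TPM in shScramble cells with MPP+, mainly through GATA2 (means of 25.6 and 19.9 TPM) and HAND1 (10.2 and 7.88 TPM), while CHGA (1.83 and 3.13 TPM) and CHGB (0.713 and 1.64 TPM) of the same list were lower. The mesenchymal list summed to 59.4 to 63.8 TPM in shMCART1 cells with MPP+ against 58.7 to 58.9 TPM in shScramble cells with MPP+, and the Schwann cell or glia list had a median of 9.42 TPM against 8.66 TPM, with the groups barely apart. The kidney epithelium and blood lists overlapped, and the part of these markers in the changes was not tested.

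The second comparison asked what raising MCART1 does under the same block. MAP1B and NEFL rose in oeMCART1 cells with MPP+ and MAPT fell, and 4 of the 7 genes tested were not called. This was 2 genes called higher, against 46.7% of all genes, and 1 lower, against 14.2%, with 60.9% of all genes called in either direction. The groups did not overlap in 4 of the 7, against 64.0% of all genes. The median change was -0.11 over the 7 genes and 0.26 over all genes. Median-of-ratios scaling, which brings the median gene to 0.00, gave 1 gene called higher and 4 lower, and quantile normalization the same 1 and 4. Removing each library's trend on GC content gave 2 higher and 3 lower.

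MAPT was at 13.9, 15.6 and 14.0 TPM in oeMCART1 cells with MPP+, against 31.4, 26.3 and 23.8 TPM in oeNC cells with MPP+. All overexpressing libraries were far below the controls, a change of -0.86 ± 0.09 (SE; adjusted p = 8.99e-06). MAP1B was at 6.02, 4.78 and 4.77 TPM in oeMCART1 cells with MPP+, against 3.12, 1.62 and 1.89 TPM in oeNC cells with MPP+. The groups did not overlap, and the change was 0.97 ± 0.17 (SE; adjusted p = 4.70e-04). TUBB3 was at 7.76, 7.73 and 7.68 TPM in oeMCART1 cells with MPP+ and 9.45, 8.96 and 8.93 TPM in oeNC cells with MPP+, lower in every library but short of the threshold at -0.21 ± 0.09 (SE; adjusted p = 0.0546). With median-of-ratios scaling or quantile normalization its change was -0.50 or -0.52 and was called (adjusted p = 0.000872 and 0.000810). MAP2 was at 1.19, 0.54 and 0.74 TPM in oeMCART1 cells with MPP+ and 0.11, 0.18 and 1.18 TPM in oeNC cells with MPP+. Control replicate 3 stood far above the other two, and without it MAP2 was called higher, by 0.66 (adjusted p = 0.0143). With all libraries MAP2 was not called (0.35 ± 0.25 (SE; adjusted p = 0.242)), and with the GC trend removed its change was -0.14.

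NEFL was at 19.1, 18.4 and 16.7 TPM in oeMCART1 cells with MPP+, against 13.5, 12.9 and 11.99 TPM in oeNC cells with MPP+. Every overexpressing library was higher, a change of 0.47 ± 0.07 (SE; adjusted p = 1.31e-04), which under median-of-ratios scaling was 0.17 and was not called (adjusted p = 0.0529). NEFM was at 15.1, 14.9 and 13.7 TPM in oeMCART1 cells with MPP+ and 18.4, 15.7 and 14.5 TPM in oeNC cells with MPP+. These groups overlapped, at -0.14 ± 0.09 (SE; adjusted p = 0.176), and it was called lower with the GC trend removed (-0.25, adjusted p = 0.0308). GAP43 was at 3.75, 3.67 and 2.81 TPM in oeMCART1 cells with MPP+ and 4.07, 3.80 and 3.36 TPM in oeNC cells with MPP+, which overlapped, at -0.11 ± 0.11 (SE; adjusted p = 0.417). With the GC trend removed its change was -0.39 and was called (adjusted p = 0.00659). STMN2 was at 0.08, 0.2 and 0.43 TPM in oeMCART1 cells with MPP+ and 0.7, 0.73 and 0.61 TPM in oeNC cells with MPP+, a lower value in every library, and with no filter its change was -0.45 (adjusted p = 0.0117). DPYSL3 was at 0.32, 0.36 and 0.45 TPM in oeMCART1 cells with MPP+ and 0.4, 0.31 and 0.23 TPM in oeNC cells with MPP+, with overlap. Of the 5 marker lists, 4 had lower sums without overlap in oeMCART1 cells with MPP+. The adrenergic list summed to 35.7 to 38.6 TPM in oeMCART1 cells with MPP+ against 41.6 to 49.1 TPM in oeNC cells with MPP+, again mainly through GATA2 (means of 15.8 and 23.3 TPM) and HAND1 (5.51 and 9.68 TPM), while CHGA (4.53 and 1.78 TPM) and CHGB (2.61 and 0.773 TPM) were higher without overlap. The kidney epithelium list summed to 241 to 269 TPM in oeMCART1 cells with MPP+ against 288 to 305 TPM in oeNC cells with MPP+, the Schwann cell or glia list to 3.52 to 4.26 TPM against 5.77 to 7.54 TPM, and the blood list to 8.51 to 13.2 TPM against 18.6 to 24.8 TPM. The mesenchymal list overlapped, and the part of these markers in the changes was not tested.

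**Figure D2:**
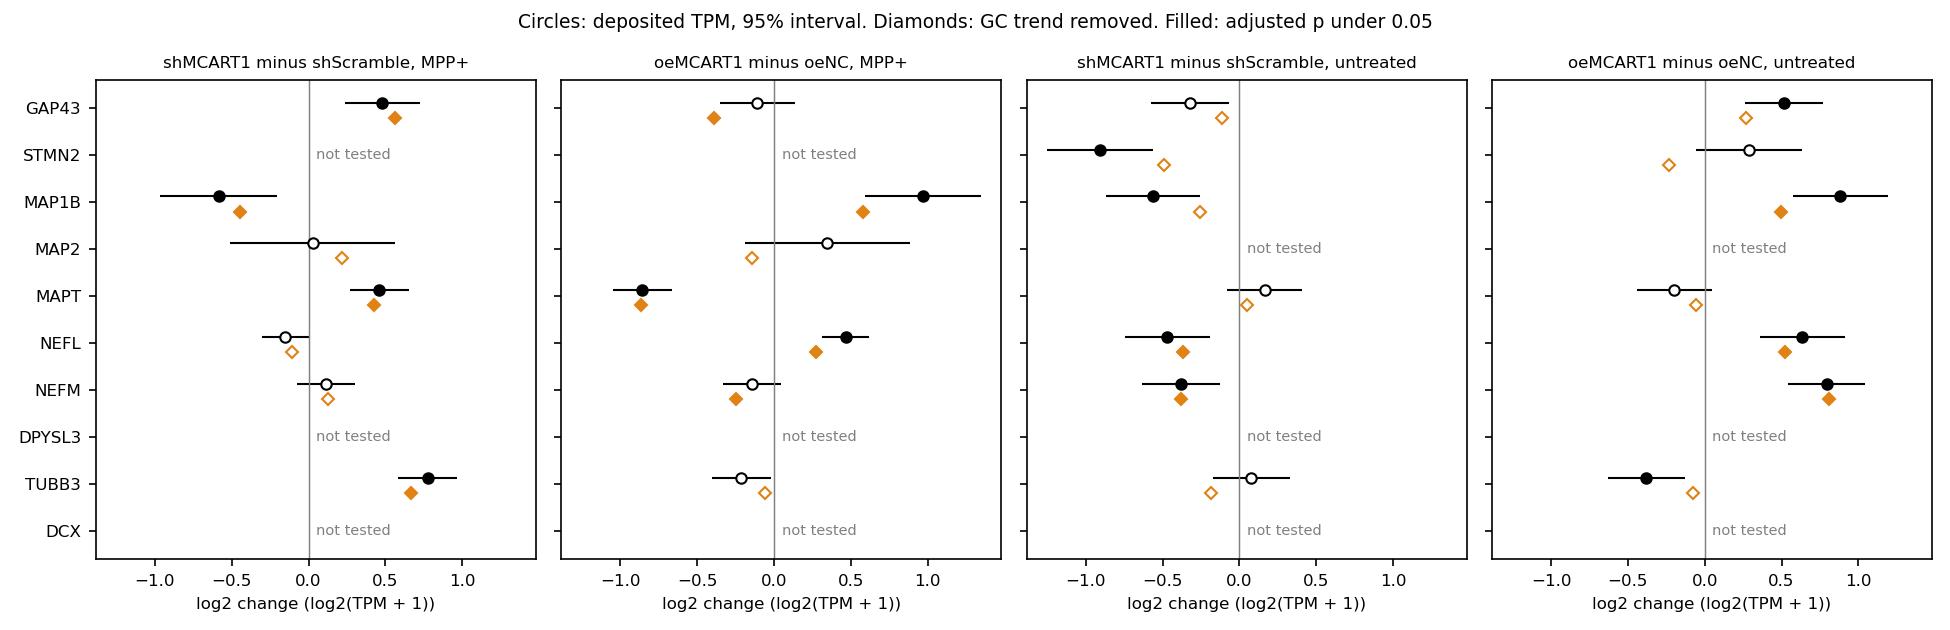
Log2 change of each gene in the 4 knockdown and overexpression comparisons, from the deposited TPM (circles, 95% interval) and after removal of the GC trend within each library (diamonds), filled where the adjusted p was under 0.05. Under MPP+, TUBB3, GAP43 and MAPT lie right of 0 in knockdown, and MAP1B lies left of 0 in knockdown and right of 0 in overexpression.

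The third comparison was the knockdown without MPP+. STMN2, MAP1B, NEFL and NEFM fell in shMCART1 cells, and none of the 7 tested genes was called higher. The 4 called lower compare with 25.6% of all 14703 genes called lower and 8.64% called higher, or 34.2% in either direction. The groups did not overlap in 5 of the 7 genes, all lower, against 33.1% of all genes that were lower without overlap. The median change was -0.38 over the 7 genes and -0.15 over all genes. The count rests on how the spread was estimated and on single libraries: it was 0 with only the 2 compared groups in the fit, where limma called 0 of all genes although 5799 had an unadjusted p under 0.05, and it was 0 without shScramble replicate 2, 1 without shMCART1 replicate 3 and 2 without shMCART1 replicate 1. With median-of-ratios scaling 1 gene was called higher and 3 lower, and with the GC trend removed 0 and 2.

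STMN2 was at 0.22, 0.54 and 0.21 TPM in shMCART1 cells, against 1.32, 1.85 and 1.28 TPM in shScramble cells. All knockdown libraries were below 1 TPM and all controls above it, a change of -0.91 ± 0.16 (SE; adjusted p = 0.0139). With the GC trend removed it was -0.49 and was not called (adjusted p = 0.0850). GAP43 was at 9.27, 8.50 and 7.20 TPM in shMCART1 cells and 10.9, 11.1 and 9.79 TPM in shScramble cells, lower in every library and just outside the threshold at -0.32 ± 0.12 (SE; adjusted p = 0.0513). DPYSL3 was at 0.51, 0.57 and 1.12 TPM in shMCART1 cells and 0.54, 0.65 and 0.81 TPM in shScramble cells, with overlap.

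MAP1B was at 3.37, 3.52 and 2.42 TPM in shMCART1 cells, against 5.02, 5.68 and 4.43 TPM in shScramble cells. It was lower without overlap, at -0.56 ± 0.14 (SE; adjusted p = 0.0182), and at -0.25 with the GC trend removed (adjusted p = 0.0712). NEFL was at 12.5, 14.7 and 10.4 TPM in shMCART1 cells, against 17.6, 17.9 and 17.1 TPM in shScramble cells. Its knockdown libraries were more spread than the controls but all lower, at -0.47 ± 0.13 (SE; adjusted p = 0.0218). NEFM was at 12.8, 14.6 and 11.6 TPM in shMCART1 cells, against 17.6, 18.1 and 15.9 TPM in shScramble cells, at -0.38 ± 0.11 (SE; adjusted p = 0.0289), and its call was lost under median-of-ratios scaling (-0.19, adjusted p = 0.104). MAPT was at 33.2, 33.5 and 31.9 TPM in shMCART1 cells and 32.5, 26.6 and 28.6 TPM in shScramble cells, and TUBB3 at 15.8, 13.3 and 16.9 TPM in shMCART1 cells and 15.4, 13.5 and 14.5 TPM in shScramble cells. Both overlapped, with changes of 0.17 ± 0.11 (SE; adjusted p = 0.247) and 0.08 ± 0.12 (SE; adjusted p = 0.605), and TUBB3 turned to -0.19 with the GC trend removed. MAP2 was at 1.04, 0.13 and 0.15 TPM in shMCART1 cells, with a single library near 1 TPM, and at 0.57, 0.36 and 0.51 TPM in shScramble cells. The adrenergic marker sum was 56.3 to 60.1 TPM in shMCART1 cells against 48.0 to 54.0 TPM in shScramble cells, with GATA2 at means of 36.3 and 29.7 TPM, while ISL1 of the same list was lower without overlap (2.72 and 3.91 TPM). The sums of the other 4 marker lists overlapped, and the part of these markers in the changes was not tested.

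In untreated overexpression NEFM, MAP1B, NEFL and GAP43 rose and TUBB3 fell in oeMCART1 cells. Of the 7 genes tested 4 were called higher, against 33.5% of all genes, and 1 lower, against 14.7%, with 48.2% of all genes called in either direction. The groups did not overlap in 6 of the 7, against 62.4% of all genes. The median change was 0.52 over the 7 genes and 0.16 over all genes. With the GC trend removed 3 were called higher and none lower, and with quantile normalization 3 higher and 2 lower.

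NEFM was at 21.1, 23.6 and 20.9 TPM in oeMCART1 cells, against 10.5, 12.7 and 13.4 TPM in oeNC cells. All overexpressing libraries stood well above the controls, a change of 0.79 ± 0.11 (SE; adjusted p = 0.00410). NEFL was at 20.3, 21.3 and 21.6 TPM in oeMCART1 cells, against 11.1, 14.4 and 14.3 TPM in oeNC cells, and rose by 0.64 ± 0.13 (SE; adjusted p = 0.00480). MAP1B was at 5.56, 6.10 and 5.81 TPM in oeMCART1 cells, against 2.38, 3.19 and 2.57 TPM in oeNC cells. The groups were far apart, with a change of 0.88 ± 0.14 (SE; adjusted p = 0.00410). GAP43 was at 8.37, 8.94 and 7.42 TPM in oeMCART1 cells, against 4.97, 5.80 and 5.61 TPM in oeNC cells, at 0.52 ± 0.12 (SE; adjusted p = 0.00640). With the GC trend removed the GAP43 change was 0.27 and was not called (adjusted p = 0.0618).

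TUBB3 was at 8.38, 8.95 and 8.99 TPM in oeMCART1 cells, against 11.8, 10.3 and 13.2 TPM in oeNC cells. It was lower without overlap, at -0.38 ± 0.12 (SE; adjusted p = 0.0192), and the call was lost without oeNC replicate 1 or 3 or oeMCART1 replicate 1 (adjusted p = 0.0585 to 0.0841) and with the GC trend removed, where the change was -0.07 (adjusted p = 0.507). MAPT was at 17.3, 15.2 and 17.2 TPM in oeMCART1 cells and 20.1, 16.2 and 21.4 TPM in oeNC cells, with overlap, at -0.20 ± 0.11 (SE; adjusted p = 0.157). It was called lower without oeNC replicate 2 (-0.31, adjusted p = 0.0279) and with median-of-ratios scaling (-0.40, adjusted p = 0.0273). STMN2 was at 1.58, 1.63 and 1.36 TPM in oeMCART1 cells and 1.14, 0.77 and 1.33 TPM in oeNC cells, higher in every library but not called, at 0.29 ± 0.16 (SE; adjusted p = 0.152), and -0.23 with the GC trend removed. MAP2 was at 0.28, 0.61 and 0.35 TPM in oeMCART1 cells and 0.08, 0.22 and 0.19 TPM in oeNC cells, and DPYSL3 at 0.48, 0.77 and 0.54 TPM in oeMCART1 cells and 0.24, 0.5 and 0.84 TPM in oeNC cells. Among the marker lists, the mesenchymal sum was higher without overlap, at 63.7 to 66.7 TPM in oeMCART1 cells against 45.3 to 58.3 TPM in oeNC cells, and the kidney epithelium sum was lower without overlap, at 160 to 165 TPM against 180 to 214 TPM. The kidney epithelium sum was lower through KRT8 (means of 79.4 and 94.7 TPM) and KRT18 (75.8 and 96.7 TPM), while EPCAM of the same list was higher without overlap (2.88 and 1.65 TPM). The adrenergic sums overlapped, at 47.6 to 51.4 TPM in oeMCART1 cells and 50.6 to 57.0 TPM in oeNC cells, and ISL1 of that list was higher without overlap (means of 4.24 and 2.58 TPM). The Schwann cell or glia and blood sums also overlapped, and the part of these markers in the changes was not tested.

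Knockdown and overexpression share no libraries, so their calls can be set against each other. The calls are not independent, since a gene's spread was estimated from all 12 libraries of a table for both. Under MPP+, MAP1B and MAPT were called in both in opposite directions, as were 95.8% of the 4076 genes called in both. STMN2, below 1 TPM in every library with MPP+ and tested there only with no filter, was called lower in both (-0.64 and -0.45). Without MPP+, MAP1B, NEFL and NEFM were called in both, again in opposite directions, as were 99.8% of 4121 genes. Opposite directions were thus common to nearly all genes called in both.

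Whether these effects differed between cells with MPP+ and untreated cells was tested in 1 fit of all 24 libraries. The value was the difference of the within-table changes, with MPP+ minus untreated. A constant offset of a gene between the tables cancels in it, but MPP+ and table cannot be told apart. GAP43 and TUBB3 had a knockdown effect that was more positive with MPP+, and NEFM, MAPT and GAP43 an overexpression effect that was more negative. Of the 6 genes tested in both tables, 2 were called for the knockdown, both more positive, against 2.02% of 13571 genes called in that direction and 4.49% in either. For the overexpression 3 were called, all more negative, against 5.87% in that direction and 19.9% in either. The median difference was 0.41 over the 6 genes for knockdown, against 0.09 over all genes, and -0.40 for overexpression, against 0.06.

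For the knockdown effect GAP43 changed by 0.48 with MPP+ and by -0.32 without it, a difference of 0.80 ± 0.16 (SE; adjusted p = 0.00832). TUBB3 changed by 0.77 with MPP+ and by 0.08 without it, a difference of 0.70 ± 0.14 (SE; adjusted p = 0.00975), which was not called with median-of-ratios scaling (0.60, adjusted p = 0.0628) or with only the compared groups in the fit (adjusted p = 0.0710). NEFM had a difference of 0.49 ± 0.14 (SE; adjusted p = 0.0539) and was called in several other settings, such as with the GC trend removed (0.50, adjusted p = 0.0191) or without shMCART1 replicate 2 (0.57, adjusted p = 0.0140). MAP1B fell in both tables, with a difference of -0.02 ± 0.23 (SE; adjusted p = 0.965) and a 95% interval of -0.49 to 0.45. MAPT and NEFL differed by 0.29 ± 0.14 (SE; adjusted p = 0.217) and 0.32 ± 0.14 (SE; adjusted p = 0.187), and NEFL was called without shMCART1 replicate 2 (0.43, adjusted p = 0.0335).

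For the overexpression effect NEFM changed by -0.14 with MPP+ and by 0.79 without it, a difference of -0.94 ± 0.14 (SE; adjusted p = 1.51e-04), the largest of the set in either direction. MAPT changed by -0.86 with MPP+ and by -0.20 without it, a difference of -0.66 ± 0.14 (SE; adjusted p = 0.00266). GAP43 changed by -0.11 with MPP+ and by 0.52 without it, a difference of -0.63 ± 0.16 (SE; adjusted p = 0.00765). These 3 were called in the same direction in all alternative fits run, including those without any single library. MAP1B, NEFL and TUBB3 had differences of 0.09, -0.17 and 0.17, with 95% intervals of -0.39 to 0.56, -0.47 to 0.13 and -0.13 to 0.47, and were not called (adjusted p = 0.466 to 0.851). STMN2, tested with no filter, had a difference of -0.74 (adjusted p = 0.0119). The change of SLC25A51 over its control was not of equal size in the tables. SLC25A51 changed by 6.63 with MPP+ and by 4.39 without it, a difference of 2.23 ± 0.18 (SE; adjusted p = 1.32e-07). In oeMCART1 cells it averaged 936 TPM with MPP+ beside 683 TPM untreated, and in oeNC cells 8.49 TPM beside 31.6 TPM. As a ratio, the control levels thus stood further apart between the tables than the oeMCART1 levels. The part of SLC25A51 in the differences of the other genes was not tested.

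**Figure D3:**
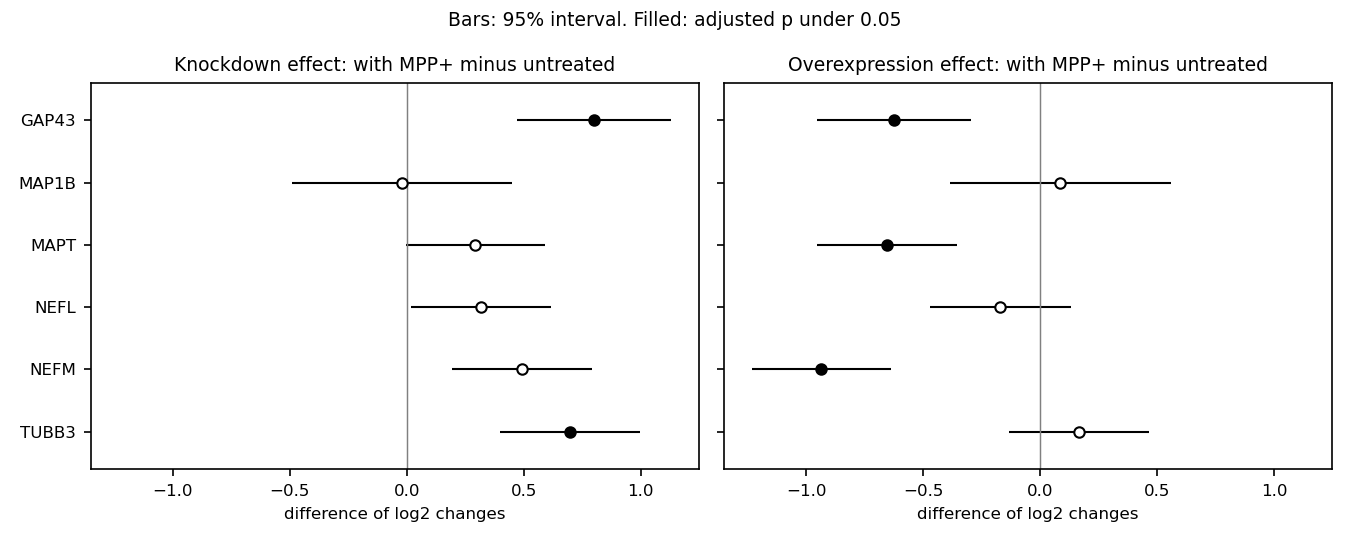
Difference between the knockdown effect (left) or the overexpression effect (right) with MPP+ and without it, in log2(TPM + 1), for the 6 genes tested in both tables. Bars are 95% intervals and filled points have an adjusted p under 0.05: GAP43 and TUBB3 lie right of 0 for knockdown, and NEFM, MAPT and GAP43 left of 0 for overexpression.

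NEFL and NEFM encode chains of the same filament, and their ratio within a library does not depend on the library's scale. This ratio was examined after the values had been seen. With MPP+ the ratio of NEFM TPM to NEFL TPM was 0.789, 0.814 and 0.818 in oeMCART1 cells, against 1.36, 1.22 and 1.21 in oeNC cells. It was 1.39, 1.41 and 1.38 in shMCART1 cells with MPP+, against 1.18, 1.15 and 1.11 in shScramble cells with MPP+. The ratio with MPP+ thus lay below its control in overexpression and above its control in knockdown, without overlap, and the exact permutation p was 0.1 for each, two-sided, the smallest that 3 against 3 libraries allow (0.133 adjusted over the 4 comparisons of the ratio). Without MPP+ the means were 1.04 ± 0.0706 in oeMCART1 cells and 0.922 ± 0.0364 in oeNC cells (SD, n = 3 each; exact permutation p = 0.1). They were 1.05 ± 0.0642 in shMCART1 cells and 0.979 ± 0.0461 in shScramble cells (SD, n = 3 each; exact permutation p = 0.3). Untreated oeMCART1 libraries (0.966 to 1.11) all lay above oeNC (0.880 to 0.945), the opposite direction to overexpression with MPP+. The untreated knockdown groups overlapped. All 12 untreated values lay between 0.880 and 1.12, a narrower range than with MPP+.

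**Figure D4:**
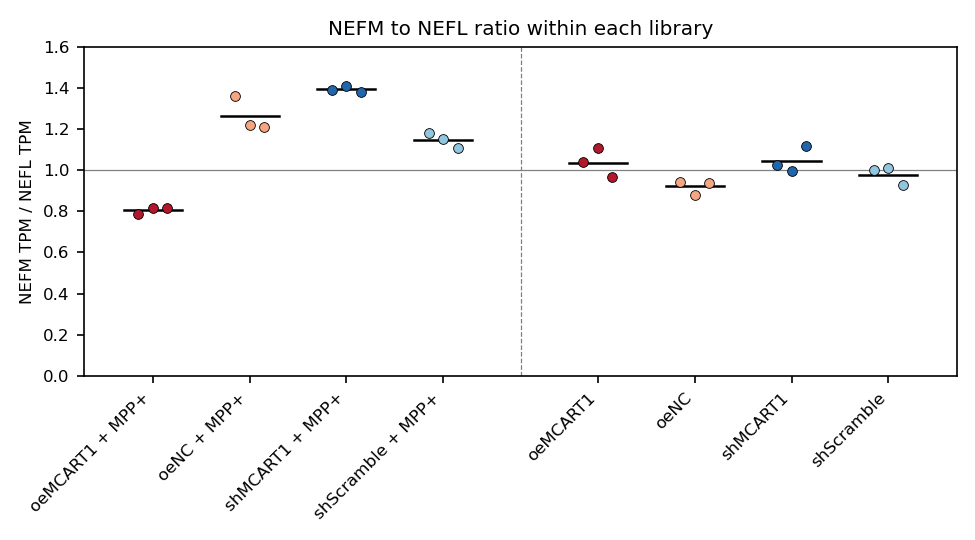
Ratio of NEFM TPM to NEFL TPM in each library (points) with the group mean (bar), with MPP+ left and untreated right of the dashed line. The oeMCART1 libraries with MPP+ lie between 0.789 and 0.818 and the other libraries with MPP+ between 1.11 and 1.41, while the untreated libraries lie between 0.880 and 1.12.

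The control groups were also compared with each other, to see how far they differed. They share libraries with the comparisons above, so their values are set beside those and not counted against them. With MPP+, GAP43 and MAP1B were lower in oeNC than in shScramble cells, 2 of 7 genes tested against 42.8% of all genes called lower and 47.9% in either direction. GAP43 averaged 3.74 ± 0.358 TPM in oeNC cells with MPP+ and 5.22 ± 0.527 TPM in shScramble cells with MPP+ (SD, n = 3 each), a change of -0.39 ± 0.11 (SE; adjusted p = 0.0132), and it was not called without shScramble replicate 3 or with the GC trend removed (-0.10, adjusted p = 0.516). MAP1B averaged 2.21 ± 0.800 TPM in oeNC cells with MPP+ and 5.13 ± 0.910 TPM in shScramble cells with MPP+, a change of -0.95 ± 0.17 (SE; adjusted p = 0.00104). That change stands beside one of 0.97 for the overexpression, which used the same oeNC libraries. In oeMCART1 cells with MPP+ MAP1B averaged 5.19 ± 0.719 TPM, near the shScramble level. With median-of-ratios scaling 3 genes were called higher and 1 lower.

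Without MPP+, GAP43, MAP1B and MAPT were lower in oeNC than in shScramble cells, 3 of 7 genes tested against 1.09% of all genes called lower and 1.29% in either direction. GAP43 averaged 5.46 ± 0.435 TPM in oeNC cells and 10.6 ± 0.702 TPM in shScramble cells, a change of -0.84 ± 0.12 (SE; adjusted p = 0.0136). These values, and those that follow, are means ± SD over 3 libraries. MAP1B averaged 2.71 ± 0.424 TPM in oeNC cells and 5.04 ± 0.625 TPM in shScramble cells, a change of -0.70 ± 0.14 (SE; adjusted p = 0.0404). MAPT averaged 19.2 ± 2.69 TPM in oeNC cells and 29.3 ± 2.96 TPM in shScramble cells, a change of -0.58 ± 0.11 (SE; adjusted p = 0.0361). The MAP1B change between these controls, -0.70, stands beside one of -0.56 for the knockdown, which used the same shScramble libraries. It also stands beside one of 0.88 for the overexpression, which used the same oeNC libraries. In oeMCART1 cells MAP1B averaged 5.82 ± 0.270 TPM. The count was 0 without shScramble replicate 1, 2 or 3 or oeNC replicate 1, and 1 without oeNC replicate 3. SLC25A51 itself differed between these controls, by 1.44 on the log2 scale untreated.

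Levels with MPP+ and without it can only be placed side by side. GAP43 averaged 5.22 ± 0.527 TPM in shScramble cells with MPP+ beside 10.6 ± 0.702 TPM untreated, and 7.67 ± 0.556 TPM in shMCART1 cells with MPP+ beside 8.32 ± 1.05 TPM untreated. TUBB3 averaged 8.70 ± 1.19 TPM in shScramble cells with MPP+ beside 14.4 ± 0.960 TPM untreated, and 15.5 ± 1.04 TPM in shMCART1 cells with MPP+ beside 15.4 ± 1.84 TPM untreated. Both genes thus stood lower with MPP+ in the scrambled control and at nearly the same level in the knockdown. STMN2 averaged 0.237 ± 0.178 TPM in oeMCART1 cells with MPP+ beside 1.52 ± 0.144 TPM untreated, and NEFM averaged 14.6 ± 0.798 TPM in oeMCART1 cells with MPP+ beside 21.9 ± 1.52 TPM untreated. These values are SD over 3 libraries, and an offset between the separately made tables was not tested.

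Changes over all genes followed transcript GC content, and the genes described here span a wide part of that range. Across genes Spearman's rho between the log2 change and GC was 0.48 for knockdown and -0.61 for overexpression with MPP+, and 0.79 and -0.82 without it, with every gene drawn from the same libraries. For the differences between effects with MPP+ and untreated, rho was -0.54 for knockdown and 0.23 for overexpression. MAP1B and STMN2 have low GC (46.3% and 44.5%), GAP43 and NEFL lie near the median tested gene (48.4% and 50.8%, against 49.7% in the MPP+ table), and NEFM, MAPT and TUBB3 are higher (53.4%, 56.5% and 62.0%). Untreated, TUBB3 and MAPT in overexpression and MAPT in knockdown lay between the quartiles of genes with similar GC. In knockdown with MPP+, GAP43, MAPT and TUBB3 stood above those quartiles and MAP1B below them, and the calls of all 4 genes were kept with the trend removed (GAP43 0.56, TUBB3 0.67, MAPT 0.43, MAP1B -0.45). NEFM, NEFL and MAP1B were called with the trend removed in untreated overexpression as well (0.81, 0.52 and 0.50). Whether the trend comes from the libraries or from the cells was not tested.

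**Figure D5:**
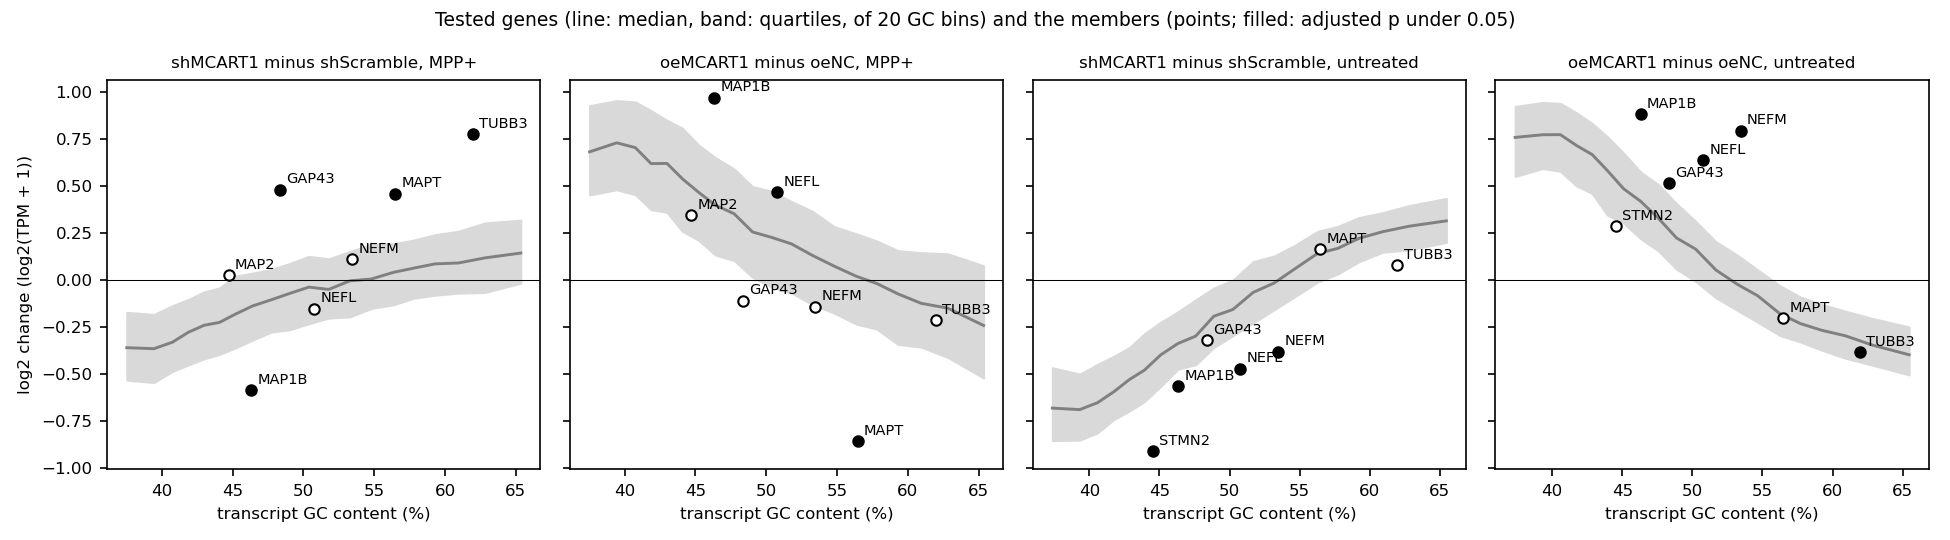
Log2 change against transcript GC content (%) for all tested genes, as the median (line) and quartiles (band) of 20 GC bins, and for the genes described here (points, filled where called). The line rises with GC in knockdown and falls in overexpression. Points outside the band include MAP1B, GAP43, TUBB3 and MAPT in MPP+ knockdown and MAPT and MAP1B in MPP+ overexpression. They also include NEFL, NEFM and MAP1B in both untreated panels.

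Other genes of the same machinery were counted from lists chosen for this purpose. Their counts stand against 10.8% of all genes called higher and 22.2% lower in knockdown with MPP+, and 46.7% higher and 14.2% lower in overexpression with MPP+, and many lie near these shares. Under MPP+, 7 of 11 tubulins tested rose in shMCART1 cells and none fell, with TUBB4A at 0.59 and TUBB2B at 0.50 and a median of 0.25 against -0.08 over all genes. In oeMCART1 cells 3 tubulins rose and 6 fell, with a median of -0.16 against 0.26 over all genes, with TUBB4A at -0.87 and TUBB2B at -0.59 among those lower and TUBB4B at 0.51 among those higher. Tubulin genes, TUBB3 included, are near-identical over long stretches, so reads may have been split between them. Of 5 other intermediate filament genes, INA, the neuronal partner alpha-internexin, fell in knockdown (-0.49) and rose in overexpression (1.25), while NES, a filament of progenitor cells, rose in knockdown (0.60), with 2 higher and 1 lower in knockdown and 1 higher and 3 lower in overexpression. Of 13 growth cone membrane and actin genes, 6 rose and 3 fell in knockdown and 7 rose and 5 fell in overexpression. FSCN1, which bundles actin in filopodia, was at 0.77 in knockdown and -1.56 in overexpression, and MARCKSL1 at 0.42 in knockdown. Of 13 microtubule-associated and plus-end proteins, 1 rose and 4 fell in knockdown and 8 rose and 1 fell in overexpression, with the plus-end protein MAPRE1 at -0.33 in knockdown and 0.75 in overexpression. Of 16 motor genes, 1 rose and 4 fell in knockdown and 9 rose and 2 fell in overexpression, KIF3B at -0.32 in knockdown and 0.81 in overexpression. AGTPBP1, which removes glutamates from tubulin tails, was at -0.64 in knockdown and 1.31 in overexpression, in a list of 11 tubulin-modifying and severing genes with 1 higher and 4 lower in knockdown and 5 higher and 3 lower in overexpression. The remaining lists had 1 higher and 2 lower of 14 kinases of cytoskeletal proteins, 2 higher and 2 lower of 9 spectrin and ankyrin genes, 1 higher and 0 lower of 12 axonal adhesion and guidance receptors and 1 higher and 2 lower of 6 stathmin and CRMP genes in knockdown. In overexpression 6 kinases were higher and 2 lower, 6 spectrin and ankyrin genes higher and 1 lower, 3 receptors higher and 0 lower, and 1 stathmin or CRMP gene higher and 1 lower. The balance in overexpression depended on scaling: median-of-ratios scaling called 4066 of all genes higher and 4237 lower, against 6949 and 2118, and gave 6 higher and 4 lower among the motors, 3 and 7 among the growth cone genes and 1 and 8 among the tubulins. In knockdown with MPP+ the tubulins had 9 higher and 0 lower under that scaling and 6 higher and 1 lower with the GC trend removed.

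Without MPP+ 8.64% of all genes were called higher and 25.6% lower in knockdown, and 33.5% higher and 14.7% lower in overexpression. None of the 11 tubulins was called in knockdown (6 were called higher with median-of-ratios scaling) and 6 fell in overexpression (9 with that scaling, and 2 with the GC trend removed), with TUBB4B at -0.38, the opposite sign to its change with MPP+. INA fell in knockdown (-0.57), where 2 of 5 intermediate filament genes were lower, and none of the 5 was called in overexpression. Of the 13 growth cone genes, 3 rose and 4 fell in knockdown and 5 rose and 6 fell in overexpression, and the actin-binding genes ABLIM1 (-0.63 and 0.71) and CFL1 (0.26 and -0.35) moved in opposite directions. Of 14 microtubule-associated and plus-end proteins, 2 rose and 5 fell in knockdown and 7 rose and 3 fell in overexpression, with CLASP2 at -0.95 in knockdown and 1.13 in overexpression. Of 16 motor genes, 1 rose and 6 fell in knockdown and 7 rose and 3 fell in overexpression, with the dynein chain DYNC1I2 at -0.74 in knockdown and 1.24 in overexpression. Of 6 stathmin and CRMP genes, CRMP1 alone was called in knockdown (-0.33), while in overexpression DPYSL5 fell (-0.35) and STMN1 was called higher (0.41, but -0.06 with the GC trend removed). AGTPBP1 was at -1.08 in knockdown and 1.24 in overexpression, in a list of 12 with 1 higher and 5 lower in knockdown and 6 higher and 3 lower in overexpression. Of 13 kinases 5 were lower in knockdown, and 6 higher and 3 lower in overexpression, of 9 spectrin and ankyrin genes 3 were lower in knockdown, and 4 higher and 1 lower in overexpression, and of 12 receptors 3 were lower in knockdown, and 6 higher and 1 lower in overexpression. With the GC trend removed, 0 genes of these 10 lists were called higher in knockdown and at most 2 of a list lower, and in overexpression at most 5 of a list were higher and at most 2 lower, so the untreated counts describe the lists on the deposited scale alone.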

How the data were processed

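RNA of 24 libraries was analysed, 3 in each of 8 groups. The values are TPM, which the authors computed and deposited as 2 tables of 12 libraries. Libraries were strand-specific and made from polyA RNA, per the labels' protocols. GRCm38, mm10 and GRCh38 are listed in the submitters' processing notes with no role stated, and the aligner, annotation and counting method were not given in the sources used here. Entries with no gene identifier (25 of 63266 untreated, 42 of 36783 with MPP+) were left out, and 31524 identifiers occur in both tables.

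Genes that reached 1 TPM in 3 libraries of a table were tested on log2(TPM + 1) with limma 3.58.1 in R 4.3.3. Trended empirical Bayes was used on all 4 groups of a table, or on all 24 libraries for differences between effects, with Benjamini-Hochberg adjustment over all genes tested and a threshold of 0.05. Transcript GC content and locations came from GENCODE 29 and promoters from RefSeq. Tables and plots were made with python 3.11.15, pandas 2.3.3, numpy 2.4.6, scipy 1.17.1 and matplotlib 3.10.9. Simulated data with known changes were used as a test of the fits. Alternatives were other pseudocounts, filters and scalings, removal of trends on GC content (natural spline, 5 degrees of freedom) and length, variance models, library weights, a replicate block, a fit of the compared groups alone and leaving out each library.

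The 10 genes, the other gene lists and the tests were chosen with earlier results of these data known. In each other list, called genes with the smallest p were eligible to be named (up to 2 per direction and comparison, mean 5 TPM or more in the higher group), and examples are given. The NEFM to NEFL ratio and the list counts under other settings were added after the values were seen. TPM hold no depth, so no counting interval can be given.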

Additional observations from a re-analysis of the deposited data

Results flagged for a closer look

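Effects that differed between cells with MPP+ and untreated cells, by a test of the difference itself (limma on 24 libraries), were found for 5 pairs of gene and contrast among the 10 genes. MPP+ and the separately made tables cannot be told apart in this test. The knockdown effect on GAP43 was higher with MPP+ by 0.80 ± 0.16 (SE; adjusted p = 0.00832), on the log2 scale. That on TUBB3 was higher by 0.70 ± 0.14 (SE; adjusted p = 0.00975). The overexpression effect with MPP+ minus that without it was -0.94 ± 0.14 (SE; adjusted p = 1.51e-04) for NEFM, -0.63 ± 0.16 (SE; adjusted p = 0.00765) for GAP43 and -0.66 ± 0.14 (SE; adjusted p = 0.00266) for MAPT. The percentages of all genes called in these tests were 4.49% for knockdown and 19.9% for overexpression. In GAP43 the sign of the fitted change differed between the tables in both contrasts, at 0.48 with MPP+ and -0.32 untreated for knockdown, and -0.11 with MPP+ and 0.52 untreated for overexpression, of which 2 were called (0.48 and 0.52). In NEFM it differed for overexpression, at -0.14 with MPP+, which was not called, and 0.79 untreated.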

How the results depend on the processing

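Counts of called genes among the 10 stayed within 1.5 times of the value reported for knockdown with MPP+ (4) and the overexpression difference (3) under all alternatives run. For untreated knockdown (4) the count was 1 with no filter, 2 with the GC trend removed, 2 with GC and length trends removed, 2 with a replicate block and the GC trend removed, and 0 with only the compared groups in the fit. For untreated overexpression (5) it was 3 under each of the 3 settings with the GC trend removed. For overexpression with MPP+ (3) it was 5 under these 3 settings, under median-of-ratios scaling and under quantile normalization. For the untreated controls (3) it was 1 with no filter, with mitochondrial DNA genes left out or with only the compared groups, 5 under the 3 GC settings and 6 with library weights. For the controls with MPP+ (2) it was 1 under the 3 GC settings and 4 under median-of-ratios scaling. For the knockdown difference (2) it was 1 under median-of-ratios scaling or with only the compared groups and 5 with library weights. Without single libraries the counts ranged from 0 to 4 (untreated knockdown), 4 to 6 (untreated overexpression), 3 to 4 (knockdown with MPP+), 3 to 4 (overexpression with MPP+), 0 to 4 (untreated controls), 1 to 3 (controls with MPP+), 2 to 4 (knockdown difference) and 3 to 3 (overexpression difference). The library weights did not reach their convergence tolerance in some fits. The cause of these shifts was not tested.

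Directions reversed in the following results. With the GC trend removed (with length removed as well in brackets), TUBB3 was -0.19 (-0.20) and ANK3 0.0029 (0.027) in untreated knockdown. STMN2 was -0.23 (-0.24) and STMN1 -0.062 (-0.088) in untreated overexpression. With MPP+, overexpression MAP2 was -0.14 (-0.15), STMN1 -0.10 (-0.11) and RTN4 -0.013 (-0.025). Between untreated controls STMN2 was 0.079 (0.079), and between controls with MPP+ MAP2 was 0.076 (0.10), MAPT 0.091 (0.15), NEFL 0.079 (0.13) and NEFM 0.14 (0.19). The replicate block with the GC trend removed gave the same values as the GC trend alone. TUBB3 was -0.016 in the overexpression difference with both trends removed. Under median-of-ratios scaling TUBA1B was -0.11 in overexpression with MPP+, and between controls with MPP+ MAPT was 0.29, NEFL 0.14 and NEFM 0.27. Quantile normalization gave 0.22, 0.14 and 0.25 for MAPT, NEFL and NEFM there, and leaving out mitochondrial DNA genes 0.00052 for MAPT. Without single libraries the changes ranged from -0.076 to 0.13 for MAP2 (knockdown with MPP+), -0.11 to 0.086 for MAPT, -0.11 to 0.055 for NEFM and -0.018 to 0.16 for TUBB3 (controls with MPP+), and for MAP1B from -0.15 to 0.071 in the knockdown difference and -0.046 to 0.28 in the overexpression difference.

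Same-numbered libraries of compared groups correlated by -0.07 to 0.21 in their deviations, so the numbers were not taken as pairs. With the replicate number as a block the counts were 5 (untreated knockdown), 5 (untreated overexpression), 4 (knockdown with MPP+), 4 (overexpression with MPP+), 4 (untreated controls), 2 (controls with MPP+), 3 (knockdown difference) and 3 (overexpression difference). Over all genes, GC removal left 437 higher and 669 lower in untreated knockdown, against 1271 and 3764, and 1071 and 966 in untreated overexpression, against 4927 and 2155. Median-of-ratios scaling gave 2903 and 2999, and 3952 and 3687, and without shScramble replicate 2 the untreated knockdown called 1 gene higher and 1 lower. Between untreated controls 189 genes were called in all, against 165 higher and 1771 lower with the block and 477 and 579 with GC removal. Between controls with MPP+ 7134 were called, against 1728 higher and 1482 lower with GC removal. In the knockdown difference 610 were called, against 504 higher and 604 lower with the block and 523 and 627 with GC removal. With no filter, untreated knockdown called 272 higher and 1000 lower. Depth is unknown, so how far counting noise limits STMN2, MAP2, DPYSL3 and DCX could not be measured.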
